A study of Homo sapiens with 4 samples.

Results

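The genes described here are 32 long non-coding RNA (lncRNA) genes of the small nucleolar RNA (snoRNA) host class, out of 60558 gene identifiers measured in each library. They are all genes whose GENCODE release 44 symbol is SNHG followed by a number, together with GAS5, ZFAS1, DANCR and EPB41L4A-AS1. Their expression was compared between myr-AKT1 and vector cells of A549 and HCC827, which are established cell lines of human lung adenocarcinoma (LAD). myr-AKT1 is an AKT1 kinase with an added myristoylation signal, which holds it at the membrane and keeps it constitutively active, and the control cells were transduced with the vector. For each line 1 library of vector cells (A549-vector, HCC827-vector) and 1 of myr-AKT1 cells (A549-myr-AKT1, HCC827-myr-AKT1) was sequenced, so a difference within a line carries no replicate check. The study profiled these cells to find lncRNAs that respond to active AKT.

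A snoRNA host gene is transcribed and spliced like a messenger RNA, and its introns carry the snoRNAs, which are trimmed out after splicing. Box C/D snoRNAs guide 2′-O-methylation of ribosomal RNA, box H/ACA snoRNAs guide its pseudouridylation, and the related small Cajal body RNAs (scaRNAs) guide the modification of spliceosomal RNAs. The spliced host RNA that remains is often short-lived, because ribosomes engage it and nonsense-mediated decay (NMD) removes it. Many host genes begin, like the ribosomal protein genes, with a terminal oligopyrimidine (TOP) tract, a C followed by a run of C or T, and translation of such RNAs responds to growth signals through mTOR, a kinase downstream of AKT.

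The values are normalized read counts, that is, reads per gene divided by 1 size factor per library. Recovered reads per library ranged from 16322183 to 33530317. The intervals given with fold changes are 95% counting intervals (Clopper-Pearson) from these reads. They cover counting error only, because copies of 1 molecule may be read more than once and no condition was sequenced again. A fold change is the log2 ratio of the normalized counts in myr-AKT1 against vector cells within a line, with no pseudocount added. AKT1 itself had 4243 and 6297 normalized counts in A549-vector and A549-myr-AKT1 cells, and 2175 and 4805 in the HCC827 pair. Its log2 fold change was 0.57 (0.51 to 0.63) in A549 and 1.14 (1.07 to 1.21) in HCC827, so both libraries labelled myr-AKT1 held more AKT1 reads. Construct and endogenous AKT1 cannot be told apart in these reads. The 5 epithelial markers checked (EPCAM, CDH1, KRT8, KRT18 and KRT19) had reads in every library. Their summed level was 5875 reads per 1000000 in A549-vector, 4951 in A549-myr-AKT1, 6830.1 in HCC827-vector and 3719.8 in HCC827-myr-AKT1. On the log2 scale KRT8 and KRT18 were lower in both lines, at -0.36 and -0.38 in A549 and -1.81 and -1.75 in HCC827. EPCAM, CDH1 and KRT19 were higher in A549, at 0.59, 1.39 and 2.65. In HCC827 CDH1 was higher, at 0.31, whereas EPCAM and KRT19 were lower, at -0.22 and -0.75. The summed level of 9 markers of leukocytes, endothelium and fibroblasts was 5.07 reads per 1000000 in A549-vector, 71.3 in A549-myr-AKT1, 6.70 in HCC827-vector and 19.9 in HCC827-myr-AKT1, with the T cell marker CD3E at 0 in all 4 libraries. In the myr-AKT1 library of both lines the epithelial sum was thus lower and the other sum higher, the latter mostly from CD14, COL1A1 and LUM in A549, while PTPRC and DCN were not higher in HCC827 nor VWF in A549. The part of either shift in the results below was not tested. Less host RNA per cell and fewer cells that contain it cannot be told apart in bulk RNA.

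The sequence at the annotated start is shown for the members on which the comparisons turn, first for the 3 members that were more than 2-fold lower in both lines and then for 6 members with a TOP tract. DANCR, 1 of the 3, was at that limit in A549 (log2 fold change -1.01) and fell short of it under other scalings. Each line gives the gene-strand bases from 10 before the start to 20 from the start on, with the TOP tract in capitals. Windows are from RefSeq (GRCh38.p14), except those of SNHG25, SNHG29 and GAS5, which were read from the hg38 genome at the start of the GENCODE canonical transcript. No C followed by at least 4 C or T begins at the start of SNHG26 (chr7:22854230-22854259, plus strand), DANCR (chr4:52712384-52712413, plus) or SNHG25 (chr17:64145927-64145956, plus). A tract of at least 7 bases does begin within 15 bases of an annotated start in each. That start is the RefSeq one for SNHG26 and the GENCODE canonical one for DANCR and SNHG25. The other windows are SNHG4 (chr5:139274091-139274120, plus), SNHG5 (chr6:85678714-85678743, minus), GAS5 (chr1:173867970-173867999, minus), ZFAS1 (chr20:49278632-49278661, plus), SNHG29 (chr17:16439027-16439056, plus) and SNHG32 (chr6:31834906-31834935, plus).
SNHG26: taaacttgatctccgcagtgccctcccttt
DANCR: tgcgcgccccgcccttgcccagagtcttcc
SNHG25: gctggtctgctcctttaaaagaacgccatc
SNHG4: ctcccggctgCCCTTTCCCCTCCggcctct
SNHG5: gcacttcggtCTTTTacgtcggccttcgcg
GAS5: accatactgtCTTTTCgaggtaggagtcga
ZFAS1: gccattcgttCTTTCgcgtctgcggtgccc
SNHG29: aaggtgtgacCTTTTCattcccgttgttat
SNHG32: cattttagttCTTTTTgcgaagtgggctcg

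In both LAD lines most snoRNA host lncRNAs were lower in myr-AKT1 than in vector cells. In A549, 23 of the 27 members with a mean of at least 50 normalized counts in the pair were lower, against 54.4% of all 13965 genes that passed the same filter. In HCC827, 20 of 24 members were lower, against 53.8% of 13096 genes. The median log2 fold change of the members was -0.76 in A549 and -0.55 in HCC827, beside -0.07 and -0.06 over all genes. SNHG26 was at 26.2% and 35.3% of its vector level in the A549 and HCC827 pairs, SNHG25 at 39.7% and 24.8%, and DANCR at 49.8% and 39.0%. SNHG29, one of the most abundant members, was at 100.8% and 110.5%.

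Past a log2 fold change of -1, a halving, lay 9 members in A549, where the background over all genes was 7.9%, and 6 members in HCC827, where it was 10.3%. No member lay above 1 in either line (background 11.2% in A549 and 10.2% in HCC827). The counting interval lay wholly below 0 for 22 of 27 members in A549 (background 43.6%) and for 19 of 24 in HCC827 (background 43.0%). It lay wholly above 0 for 3 members in A549 (background 35.5%) and 2 in HCC827 (background 36.0%). Of the 24 members that passed the filter in both lines, 20 were lower in both (background 39.8%), 3 were higher in both (background 27.7%), 18 had an interval below 0 in both (background 29.5%) and 3 lay past -1 in both (background 4.1%). The last count includes DANCR, which in A549 lay past -1 only narrowly and not under other scalings. The fold changes of these 24 genes in the 2 lines had a Pearson correlation of 0.62, beside 0.52 for the 12051 genes that passed in both, which is a description across genes and not across replicates.

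**Figure D1:**
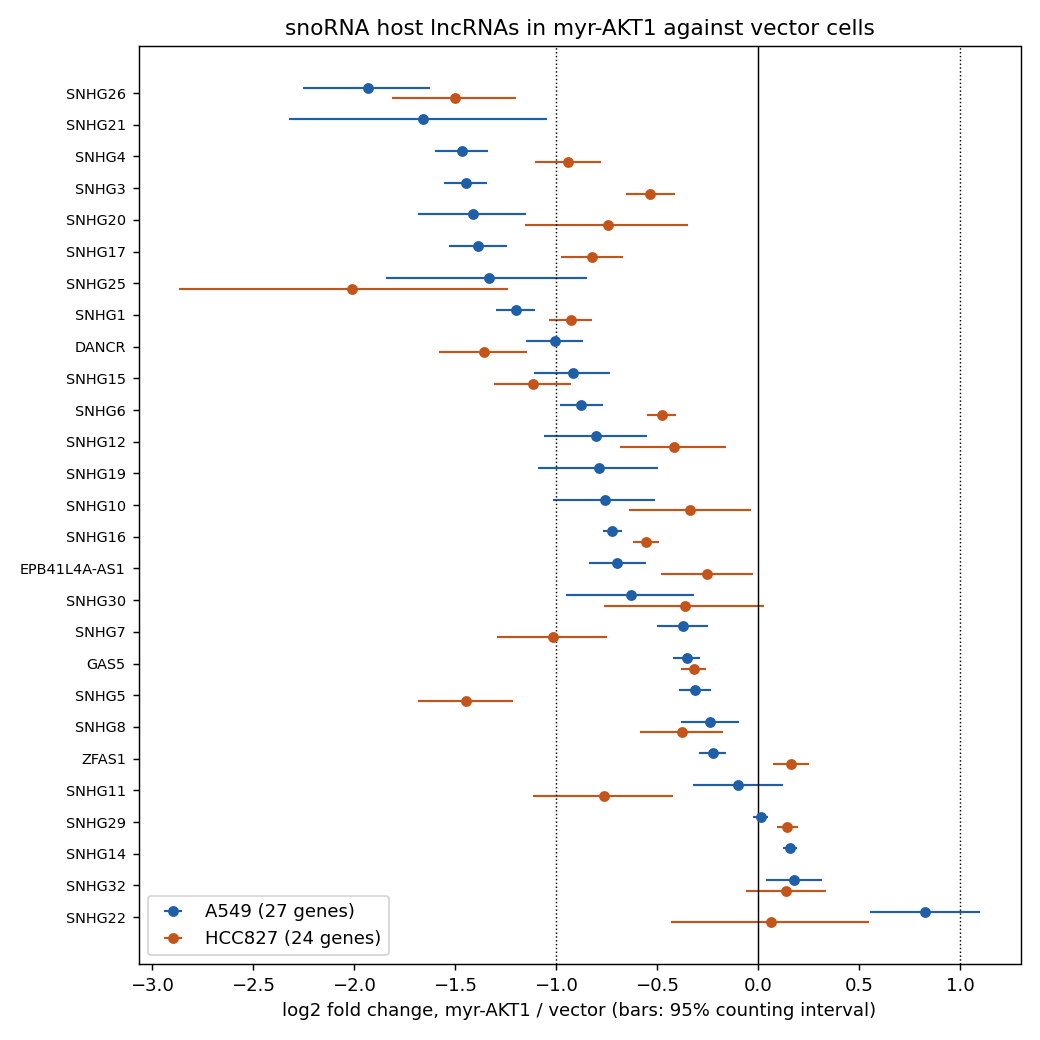
Log2 fold change (myr-AKT1 over vector) of each member with a pair mean of at least 50 normalized counts, with A549 in blue (27 genes) and HCC827 in orange (24 genes). Bars are 95% counting intervals and dotted lines mark -1 and 1. Points to the left of 0 outnumber those to the right in both lines, 23 of 27 and 20 of 24, and SNHG26, SNHG25 and DANCR lie past -1 in both. For DANCR in A549 the point is at -1.01 and the bar runs from -1.15 to -0.87.

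The test across the lines used all 4 libraries with cell line as a block, so that the vector and myr-AKT1 libraries of a line form a pair and the lines stand in for replicates. In that fit (limma on log2(value + 1), 1 residual degree of freedom, adjusted over 19314 genes) 0 of the 29 members tested passed an adjusted p of 0.05 in either direction, where 1.73% of all genes were called lower and 1.29% higher. Its SE and p-values use variances moderated toward a trend over all genes. They therefore rest largely on other genes and not on the 1 residual degree of freedom alone. At an unadjusted p of 0.05, 13 members were lower (background 9.24%) and 0 were higher (background 9.17%). The lowest adjusted p was that of SNHG26, with a log2 fold change of -1.71 (SE 0.39) and a limma adjusted p of 0.0667. It was followed by SNHG1 (-1.06, SE 0.25, adjusted p = 0.0717), SNHG4 (-1.20, SE 0.29, adjusted p = 0.0747), DANCR (-1.18, SE 0.30, adjusted p = 0.0855) and SNHG17 (-1.10, SE 0.29, adjusted p = 0.0967). DESeq2 on the recovered reads called 3 members lower, namely SNHG26 (adjusted p = 0.0240), SNHG1 (adjusted p = 0.0251) and SNHG4 (adjusted p = 0.0378), where 2.67% of all genes were called lower. edgeR's quasi-likelihood test with TMM called 0 members, with 10 lower at an unadjusted p of 0.05 (background 7.34%). limma without the filter on low values called 6 members lower (background 2.7%). Its p-values follow a normal distribution, so each gene's variance was taken from the trend of variance with level over all genes, not from the gene itself. No member passed in the limma test with the filter, so the values below describe the 4 libraries.

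Among the hosts of box H/ACA snoRNAs, SNHG3, SNHG4 and SNHG17 had lower counts in both myr-AKT1 libraries. SNHG3 (chr1:28505980-28510892, plus strand), which carries SNORA73A and SNORA73B, had 2948 normalized counts in A549-vector and 1079.9 in A549-myr-AKT1 cells, and 1430.5 and 988 in the HCC827 pair. On the log2 scale this was -1.45 (-1.55 to -1.34) in A549 and -0.53 (-0.66 to -0.41) in HCC827. SNHG4 (chr5:139274102-139284899, plus), host of SNORA74A and SNORA74D, had 1880.1 and 679 counts in A549 and 978 and 509.6 in HCC827. This was -1.47 (-1.60 to -1.34) and -0.94 (-1.11 to -0.78) on the log2 scale, and the decrease was the larger one in A549 for both genes. SNHG17 (chr20:38419638-38435409, minus), which carries the SNORA71 family, had 1542 and 589.7 counts in A549 and 1072 and 606.5 in HCC827. It stood at 38.2% of the vector level in A549 and 56.6% in HCC827.

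DANCR and SNHG15 carry 1 annotated snoRNA each, SNORA26 and SNORA9, and both were lower in HCC827 by more than in A549. DANCR (chr4:52712325-52723623, plus), a lncRNA first described as a brake on differentiation, had 1323 and 658 normalized counts in A549 and 714 and 278 in HCC827. Its log2 fold change was -1.01 (-1.15 to -0.87) in A549 and -1.36 (-1.58 to -1.15) in HCC827. SNHG15 (chr7:44983019-44986961, minus) had 704 and 372 counts in A549 and 802 and 369.9 in HCC827. Its log2 fold changes of -0.92 (-1.11 to -0.73) and -1.12 (-1.31 to -0.93) had intervals that overlap.

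The other H/ACA hosts moved less or unevenly. SNHG7, host of SNORA17A and SNORA17B, had 1237 and 954 normalized counts in A549 and 374 and 185 in HCC827, which is 77.1% and 49.4% of the vector level. SNHG8, host of SNORA24, had log2 fold changes of -0.24 (-0.38 to -0.10) in A549 and -0.38 (-0.59 to -0.17) in HCC827. EPB41L4A-AS1, host of SNORA13, had -0.70 (-0.84 to -0.56) and -0.25 (-0.48 to -0.03). SNHG11, which carries SNORA60 and SNORA71E, had 357 and 333 normalized counts in A549, where its interval spanned 0 (-0.32 to 0.12) and its sign turned to 0.00 with size factors over all 4 libraries, and 207 and 122 in HCC827. Reads of SNHG8, EPB41L4A-AS1 and SNHG7 may be shared with a gene on the other strand, since 37.6%, 51.2% and 30.3% of their exon bases lie opposite exons of PRSS12, EPB41L4A and DIPK1B.

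Among the hosts of box C/D snoRNAs, SNHG26 and SNHG1 stood at less than 53% of the vector level in both lines. SNHG26 (chr7:22854126-22872952, plus), host of SNORD93, had 446 normalized counts in A549-vector, 117 in A549-myr-AKT1, 392 in HCC827-vector and 138 in HCC827-myr-AKT1 cells. The myr-AKT1 library was far below the vector library in each pair, with log2 fold changes of -1.93 (-2.25 to -1.62) and -1.50 (-1.81 to -1.20). SNHG1 (chr11:62851978-62855953, minus), which carries SNORD22 and SNORD25 to SNORD31, had 3112 and 1354 counts in A549 and 2276 and 1197 in HCC827. Its log2 fold changes of -1.20 (-1.30 to -1.11) and -0.93 (-1.04 to -0.82) lay within 0.27 of each other. SNHG30, host of SNORD7, had -0.63 (-0.95 to -0.32) in A549 and -0.36 (-0.76 to 0.03) in HCC827.

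SNHG16, SNHG6 and GAS5 were abundant in both lines and were lower by smaller steps. SNHG16 (chr17:76557727-76670985, plus), host of SNORD1A to SNORD1C, had 10006 and 6065 normalized counts in A549 and 5211 and 3541 in HCC827, which is 60.6% and 68.0% of the vector level. Of its exon bases, 28.5% lie opposite exons of another gene. SNHG6, host of SNORD87, had 2177 and 1186 counts in A549 and 4148 and 2977 in HCC827, and 58.9% of its exon bases lie opposite exons of MCMDC2. GAS5 (chr1:173858559-173868882, minus), whose RNA builds up in growth-arrested cells, is a host of 11 RefSeq snoRNAs, among them the box H/ACA snoRNA SNORA103. GAS5 had 4213 and 3297 counts in A549 and 4854 and 3891 in HCC827. Its log2 fold changes of -0.35 (-0.42 to -0.29) and -0.32 (-0.38 to -0.26) were alike in both lines within counting error. Other scalings moved them beyond these intervals, to -0.25 in A549 with size factors over all 4 libraries and -0.24 in HCC827 with total reads.

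SNHG5 and SNHG19 were among the members with the widest gap between the lines. SNHG5 (chr6:85650491-85678932, minus), host of SNORD50A and SNORD50B, had 3029 and 2440.3 normalized counts in A549 and 628 and 230.3 in HCC827. On the log2 scale the change was -0.31 (-0.39 to -0.23) in A549 and -1.45 (-1.69 to -1.21) in HCC827, intervals that do not overlap. SNHG19, host of SNORD60, had 273 and 158 counts in A549, and in HCC827 62.8 and 16.4, a pair mean of 39.6 that falls under the filter. With 1 library per condition, no test of the difference between the lines can be made.

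Several C/D hosts were not lower in both lines. SNHG29 (chr17:16438767-16480249, plus), host of SNORD49A, SNORD49B and SNORD65, had 11219.7 and 11309 normalized counts in A549 and 6027 and 6660.2 in HCC827. Its log2 fold change was 0.01 (-0.03 to 0.05) in A549 and 0.14 (0.09 to 0.20) in HCC827. SNHG32, host of SNORD48 and SNORD52, stood at 0.18 (0.04 to 0.31) and 0.14 (-0.06 to 0.34), and 29.1% of its exon bases are shared with other genes on its strand. ZFAS1 (chr20:49278178-49299600, plus), host of the SNORD12 family and antisense to ZNFX1, had 3799.6 and 3249 counts in A549 and 1934 and 2167 in HCC827. It was thus lower in the myr-AKT1 library of A549 and higher in that of HCC827, at -0.23 (-0.29 to -0.16) and 0.16 (0.07 to 0.25), and its reads and those of ZNFX1 where their exons lie opposite each other cannot be told apart without strand.

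SNHG12 and SNHG25, like GAS5, carry snoRNAs of both classes. SNHG25 (chr17:64145937-64146476, plus), host of SNORD104 and SNORA50C, had 133 and 52.7 normalized counts in A549 and 81.1 and 20.1 in HCC827. Its log2 fold changes were -1.33 (-1.84 to -0.85) and -2.01 (-2.87 to -1.24), with wide intervals because HCC827-myr-AKT1 held 16 reads. On its strand 39.7% of its exon bases are shared with annotated snoRNA genes. SNHG12 had 369 and 212 counts in A549 and 301 and 225 in HCC827, at 57.4% and 74.8% of the vector level.

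The hosts of scaRNAs went in both directions. SNHG20, which overlaps SCARNA16, had 458 and 172 normalized counts in A549 and 152 and 90.6 in HCC827, with log2 fold changes of -1.41 (-1.69 to -1.15) and -0.74 (-1.16 to -0.35). SNHG10, which overlaps SCARNA13, had -0.76 (-1.02 to -0.51) and -0.34 (-0.64 to -0.04). SNHG22 (chr18:49813965-49851059, plus), which overlaps SCARNA17, was the member with the highest fold change in A549, with 169 and 300.02 counts, a log2 fold change of 0.82 (0.55 to 1.10). In HCC827 it had 72.3 and 75.5 counts and an interval that spanned 0 (-0.43 to 0.55).

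**Figure D2:**
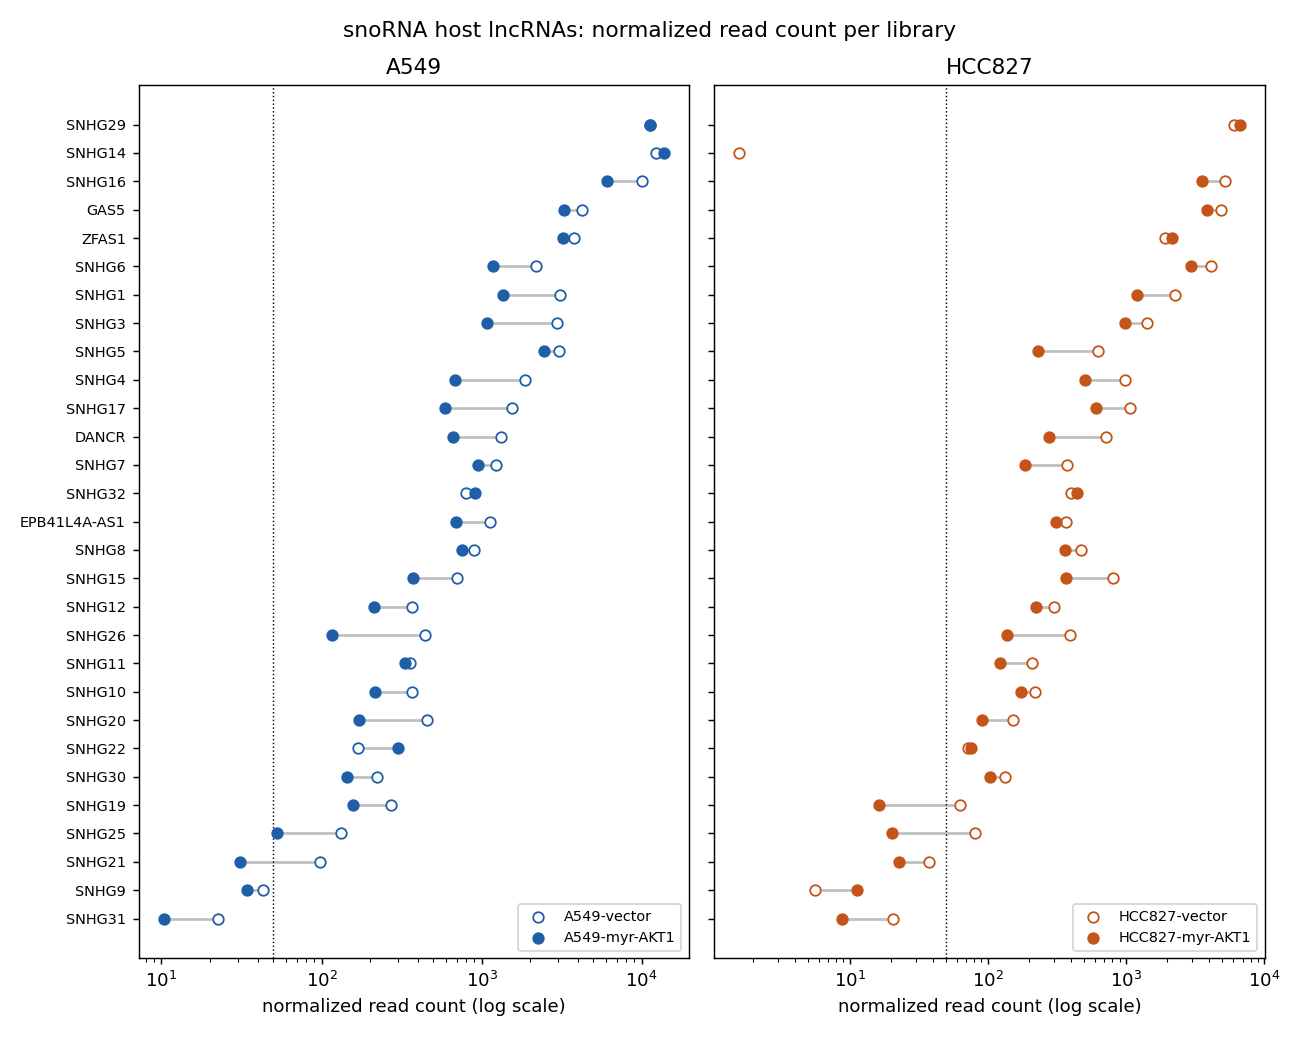
Normalized read count of the members with reads in each library (log axis), with open circles for vector and filled circles for myr-AKT1 cells, A549 on the left and HCC827 on the right. The dotted line marks 50 normalized counts. Filled circles lie left of open ones for most genes, SNHG29 has its circles nearly on top of each other in A549, and SNHG14 has 12316 and 13727 counts in A549 and 1.59 in HCC827-vector, with the 0 of HCC827-myr-AKT1 left off the log axis.

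Members under the mean of 50 were set aside from the counts of fold changes, though some of them were kept in the fits over both lines. In A549 they were SNHG9, SNHG31, SNHG18, SNHG27 and SNHG28, and in HCC827 SNHG14, SNHG19 and SNHG21 joined them. The member just inside the limit in A549 was SNHG21, with a pair mean of 64.4, and just outside it was SNHG9 with 38.6. In HCC827 SNHG25 was just inside with 50.6 and SNHG19 just outside with 39.6. SNHG21 had 97.8 and 30.9 normalized counts in A549 (log2 fold change -1.66, -2.33 to -1.04) and 37.4 and 22.6 in HCC827, and 72.9% of its exon bases are shared with another gene on its strand. SNHG31, host of SNORA70I, had 26 reads in each vector library and 9 and 7 reads in the A549 and HCC827 myr-AKT1 libraries. SNHG9, host of SNORA78, had 49 and 30 reads in A549 and 7 and 9 in HCC827. SNHG27 and SNHG28 had 0 reads in all 4 libraries and SNHG18 had 1 read in A549-myr-AKT1, and a count of 0 still allows up to 3 reads per library.

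SNHG14 differed between the lines by far more than any member differed within a line. It is a long imprinted transcript of the Prader-Willi region on chromosome 15 (chr15:24978583-25420336, plus), active on the paternal copy, host of the SNORD115 and SNORD116 clusters and antisense to UBE3A at its far end. A549-vector held 14103 reads and A549-myr-AKT1 11987, whereas HCC827-vector held 2 and HCC827-myr-AKT1 held 0. With size factors over all 4 libraries, SNHG14 differed between the vector libraries by 12.51 on the log2 scale (10.65 to 15.55). Between the myr-AKT1 libraries it was at least 2832-fold higher in A549, computed against a floor of 3 reads per library. SNRPN, SNURF and NDN, other paternally expressed genes of the region that were chosen after the values were seen, had 2994, 69.9 and 33.2 normalized counts in A549-vector and 0 in both HCC827 libraries. SNRPN shares exon bases with SNHG14 on the same strand, so it is not a fully separate measure. UBE3A had 3884 and 3095 normalized counts in the A549 pair and 3099 and 2601 in the HCC827 pair. Within A549, SNHG14 stood at 0.16 (0.12 to 0.19) on the log2 scale in myr-AKT1 cells.

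The other members differed between the vector libraries by far less. With size factors over all 4 libraries and a mean of at least 50, 6 of 27 members were more than 2-fold higher in A549-vector (background 15.9%) and 1 was more than 2-fold lower (background 16.3%). Besides SNHG14, the log2 difference of A549 against HCC827 was 1.86 (1.74 to 1.97) for SNHG5, 1.71 (1.35 to 2.08) for SNHG19, 1.31 (1.16 to 1.46) for SNHG7, 1.19 (1.04 to 1.35) for EPB41L4A-AS1 and 1.18 (0.94 to 1.42) for SNHG20. SNHG6 went the other way, at -1.34 (-1.41 to -1.28). SNHG1 was level between the lines, at 0.04 (-0.03 to 0.11), and these differences rest on 1 library per line.

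Levels between genes were compared as RPKM, reads scaled to the kilobases of annotated exon and to the library total. In A549-vector SNHG16 was highest with 59.2 RPKM, followed by SNHG29 with 42.8, SNHG6 with 29.4, GAS5 with 29.2, SNHG1 with 26.7 and SNHG3 with 24.6. SNHG6 and GAS5 are neighbours in that order with nearly the same level. In HCC827-vector SNHG6 was highest with 75.6 RPKM, then GAS5 with 45.3, SNHG16 with 41.6, SNHG29 with 31.0 and SNHG1 with 26.4. The order depends on the length used, because the union of annotated exons also covers retained-intron transcripts. When all reads of a gene were divided by the length of its canonical transcript instead, SNHG29 was highest in both vector libraries, with 865 and 627 RPKM. SNHG16 came next with 686 and 482, and GAS5 followed with 187 and 291. Reads of the canonical transcript alone were not counted, so these values are not its level. SNHG14 had 3.43 RPKM in A549-vector over the union of its exons, which spans 122609 bases.

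The snoRNAs themselves are annotated as genes of their own, and 140 of those in GENCODE lie inside the members. SNHG14 holds 84 of them and GAS5 holds 0, because the 11 snoRNAs given above for GAS5 are from RefSeq. Of the 140, 118 had 0 reads in all 4 libraries and 9 had at least 20 reads in a library. Of the 76 that lie wholly inside an annotated exon of their host, 73 had 0 reads, whereas outside such exons, for hosts other than SNHG14, 2 of 13 had 0 reads. How reads in a region annotated to more than 1 gene were counted is not given in the sources used here, and mature snoRNAs are shorter than the fragments such libraries usually hold. These values therefore describe reads assigned to the snoRNA's interval, not snoRNA abundance. The 3 box C/D snoRNAs below had reads and belong to hosts with unlike fold changes, ZFAS1 for SNORD12B (chr20:49280319-49280409, plus) and SNORD12C (chr20:49278940-49279028, plus) and SNHG25 for SNORD104 (chr17:64146083-64146152, plus). They are printed from the hg38 genome, with the C box motif TGATGA and the D box motif CTGA in capitals.
SNORD12B: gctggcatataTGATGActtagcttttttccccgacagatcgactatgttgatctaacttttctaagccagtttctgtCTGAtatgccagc
SNORD12C: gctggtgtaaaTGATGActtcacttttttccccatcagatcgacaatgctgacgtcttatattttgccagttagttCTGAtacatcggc
SNORD104: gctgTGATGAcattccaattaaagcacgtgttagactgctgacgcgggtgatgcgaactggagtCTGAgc

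Reads over these intervals did not always go with the host. SNORD12B had 215 reads in A549-vector, 67 in A549-myr-AKT1, 122 in HCC827-vector and 79 in HCC827-myr-AKT1 cells. After normalization this was -1.29 (-1.71 to -0.89) on the log2 scale in A549, where ZFAS1 stood at -0.23, and 0.04 (-0.39 to 0.46) in HCC827. SNORD12C had 45, 6, 18 and 7 reads in the same order, with -2.52 (-4.04 to -1.28) in A549 and -0.70 (-2.20 to 0.63) in HCC827. In A549 both SNORD12 intervals thus lay below their host by more than the counting error of either.

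SNORA71B of SNHG17 had 74, 13, 67 and 21 reads in the same order of libraries. Its log2 fold changes were -2.12 (-3.09 to -1.26) in A549 and -1.01 (-1.79 to -0.29) in HCC827, beside -1.39 and -0.82 for its host. SNORD104 had 50, 21, 25 and 6 reads, with -0.86 (-1.67 to -0.10) and -1.40 (-2.97 to -0.08), and SNORD93 of SNHG26 had 22, 5, 9 and 1. SNORA71B, SNORD104 and SNORD93 were lower in both lines, as their hosts were, although the interval of SNORD93 in HCC827 spanned 0 (-7.96 to 0.34). SNORA74D of SNHG4 had 117, 38, 31 and 14 reads, and SNORA74A had 32, 20, 15 and 0. Both also lie within MATR3, whose log2 fold changes were -0.41 in A549 and -0.03 in HCC827. SNORA13 of EPB41L4A-AS1 had 31, 9, 9 and 8 reads, and its HCC827 interval spanned 0 (-1.08 to 2.04).

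SNORA73B, the snoRNA with the most reads, did not follow its host. It lies within SNHG3 and within RCC1, the nucleotide exchange factor of Ran, and had 954, 777, 528 and 554 reads. The log2 fold change of SNORA73B was 0.09 (-0.04 to 0.23) in A549 and 0.73 (0.56 to 0.91) in HCC827, whereas SNHG3 stood at -1.45 and -0.53. RCC1 was lower in both lines too, at -1.35 and -0.90. Of all 941 annotated snoRNA genes, 92 in the A549 pair and 82 in the HCC827 pair had at least 20 reads, with median log2 fold changes of -0.53 and -0.40. Under the pair mean of 50 used for the other lists, 14 and 11 snoRNA genes passed, with medians of the other sign, 0.12 and 0.04.

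**Figure D3:**
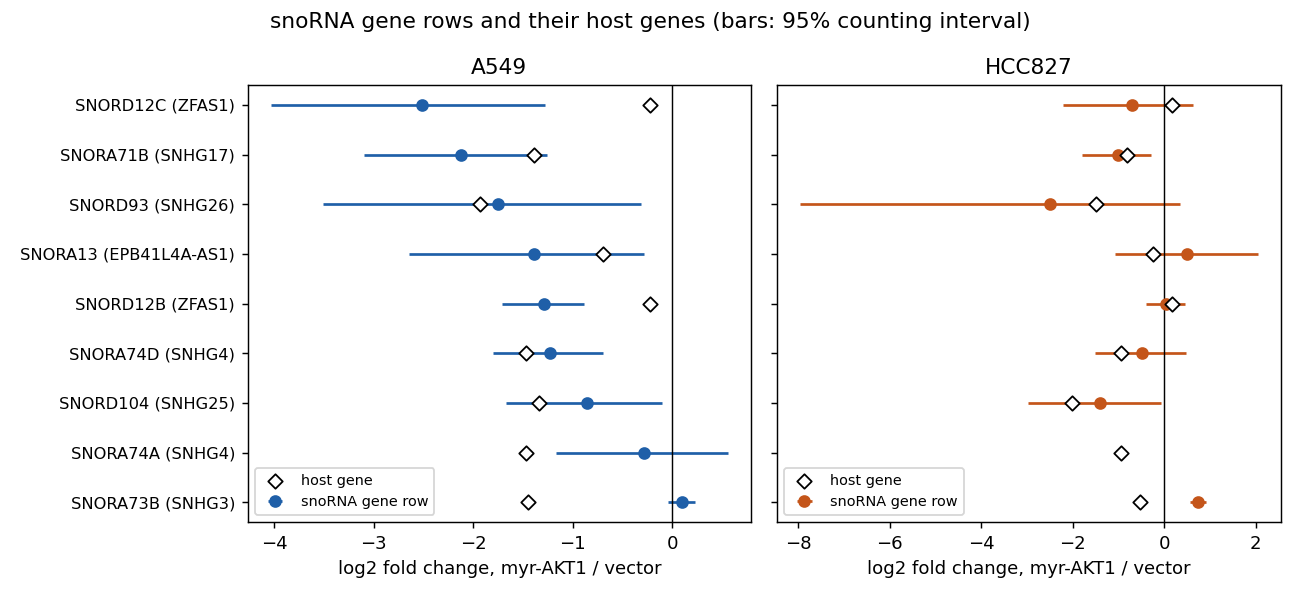
Log2 fold change (myr-AKT1 over vector) of the 9 snoRNA intervals with at least 20 reads in a library (filled circles, bars are 95% counting intervals) and of their host genes (open diamonds), A549 on the left and HCC827 on the right. SNORA73B lies to the right of SNHG3 in both lines, SNORD12B and SNORD12C lie to the left of ZFAS1 in A549, and SNORA74A is not drawn in HCC827, where its myr-AKT1 count was 0.

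Transcripts of the proteins that assemble on snoRNAs were lower as well. Of the 8 core proteins of the box C/D and H/ACA particles, all 8 were lower in both lines (background 39.8%). Their median log2 fold changes were -1.17 in A549 and -0.76 in HCC827. Past -1 lay 6 in A549 (background 7.9%) and 4 in HCC827 (background 10.3%). The 3 lowest by the mean of the lines were NOP56 (-1.52 and -1.65) and NOP58 (-1.28 and -1.54), which form the C/D core with fibrillarin, and DKC1 (-1.30 and -1.04), the H/ACA pseudouridine synthase. NOP56, NOP58 and DKC1 are snoRNA hosts themselves. The 3 highest were SNU13 (-0.92 and -0.42), GAR1 (-1.06 and -0.16) and NOP10 (-0.55 and -0.07). In HCC827 the counting intervals of GAR1 (-0.49 to 0.17) and NOP10 (-0.20 to 0.07) spanned 0. Thus 6 of the 8 had an interval below 0 in both lines (background 29.5%).

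Of 9 factors that assemble these particles, 8 were lower in A549 (background 54.4%) and 9 in HCC827 (background 53.8%). Their medians were -0.68 and -0.65. The ATPase RUVBL2 had log2 fold changes of -1.04 and -0.65 in A549 and HCC827, its partner RPAP3 -0.68 and -0.998, and the assembly factor NUFIP1 -0.72 and -0.93. PIH1D1 stood at 0.17 and -0.35.

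The ribosomal protein genes were lower by smaller steps, and the other protein-coding snoRNA hosts lay nearer to the shares over all genes. Of the 79 cytosolic ribosomal protein genes, 76 were lower in A549 (background 54.4%) and 75 in HCC827 (background 53.8%). Their medians were -0.47 and -0.31, and 0 lay past -1 in either line (background 7.9% and 10.3%). RPS26 was the lowest by the mean of the lines (-0.94 and -0.81) and RPS19 the highest (0.12 and -0.08). Of the protein-coding snoRNA hosts other than ribosomal protein genes, 122 of 174 (70.1%) were lower in A549 and 103 of 171 (60.2%) in HCC827. The background was 54.4% and 53.8%, and the medians of these hosts were -0.31 and -0.21. Past -1 lay 9.2% of them in A549 and 15.2% in HCC827, beside 7.9% and 10.3% of all genes. These hosts included the condensin subunit gene NCAPD2 (-1.88 and -1.17) and ODC1, the first enzyme of polyamine synthesis (-1.73 and -1.18). At the other end was the potassium channel gene KCNC4 (1.16 and 4.28). lncRNA genes other than the members had medians of 0.08 over 1130 genes in A549 and -0.04 over 920 in HCC827. The members' medians of -0.76 and -0.55 thus lay between those of the snoRNP core proteins and of the ribosomal protein genes, and no test of one list against another was made.

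**Figure D4:**
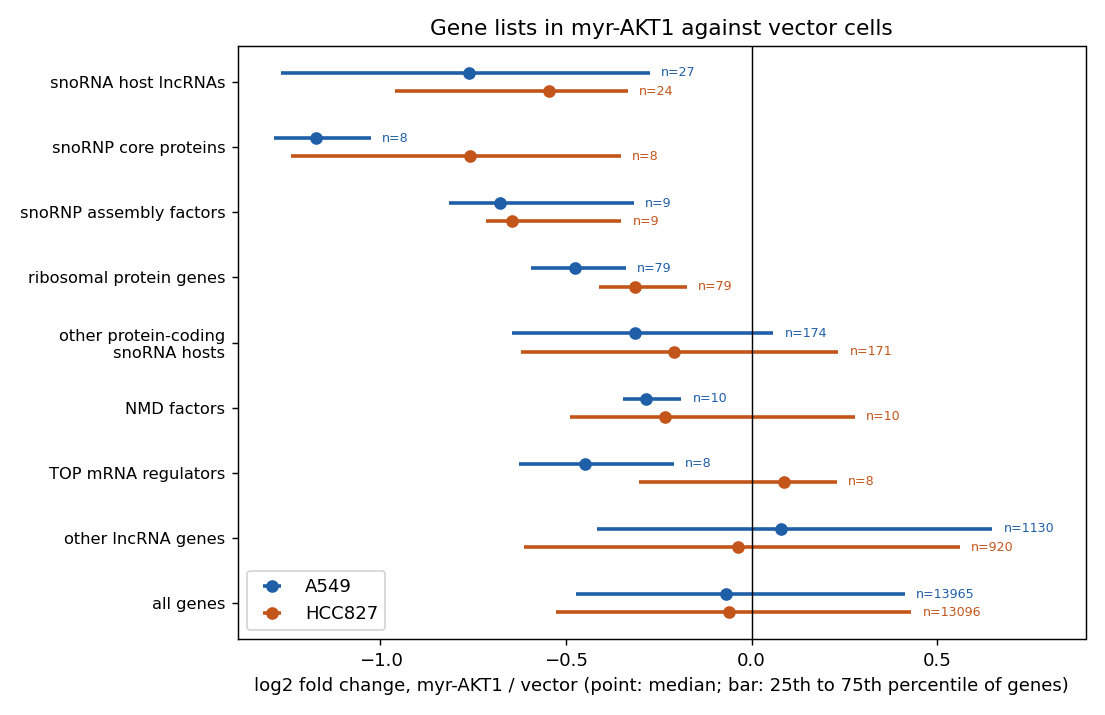
Median log2 fold change (points) and the range from the 25th to the 75th percentile of genes (bars) for each list, with A549 in blue and HCC827 in orange and n the number of genes with a pair mean of at least 50. The snoRNA host lncRNAs (medians -0.76 and -0.55) and the snoRNP core proteins (-1.17 and -0.76) lie left of the ribosomal protein genes (-0.47 and -0.31), the other lncRNA genes (0.08 and -0.04) and all genes (-0.07 and -0.06).

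Genes of NMD and of TOP mRNA translation were less uniform. Of 10 NMD factors, 9 were lower in A549 (background 54.4%) and 7 in HCC827 (background 53.8%), with medians of -0.28 and -0.23. The adaptor gene UPF2 was lower in both lines (-0.78 and -0.94), as was UPF3B (-0.35 and -1.01), whereas the helicase gene UPF1 differed in sign (-0.16 and 0.57). Of 8 genes that act on TOP mRNAs, 7 were lower in A549 and 4 in HCC827 (same backgrounds), with medians of -0.45 and 0.09. The cap-binding protein gene EIF4E was lower in both lines (-0.59 and -0.74), the translation repressor gene EIF4EBP1 differed in sign (-1.10 and 0.26), and MTOR stood at -0.02 and 0.22.

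A TOP tract, searched as a C at the annotated start followed by at least 4 C or T on the gene's strand, was present in 7 of the 28 members with a RefSeq window (25%). In the same windows it was found in 43 of 63 ribosomal protein genes (68.3%) and in 1104 of all 27305 genes (4.04%). At GENCODE canonical starts it was found in 4 of 32 members (12.5%), 60 of 79 ribosomal protein genes (75.9%) and 3.63% of 36551 genes, so the share among members depends on which start is taken. A second search took a tract of at least 7 bases that begins within 15 bases of the start. At RefSeq starts it was found in 21.4% of members, 81.0% of ribosomal protein genes and 17.1% of all genes. At GENCODE canonical starts the shares were 18.8%, 89.9% and 16.7%. By the first search, the 8 members with a tract at either start that passed the filter in A549 had a median log2 fold change of -0.33, and the 19 others had -0.88. These 19 include SNHG26, DANCR, SNHG25, SNHG7 and SNHG8, which have a tract by the second search, so the grouping depends on the rule. In HCC827 the medians were -0.32 over 7 members and -0.74 over 17. Tract members were found at both ends of the range, with SNHG29, ZFAS1 and SNHG32 near 0 in both lines, SNHG4 at 36.1% of the vector level in A549 and SNHG5 at 36.7% in HCC827.

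Motifs of transcription factors were searched on both strands from 250 bases before to 50 after the RefSeq start. CACGTG, the E-box bound by MYC and its relatives, was present in 2 of 28 members (7.14%, against 7.43% of all windows). At GENCODE canonical starts it was present in 6 of 32 members (18.8%, against 7.21%). TTCNNNGAA, a STAT motif, was present in 2 of 28 members (7.14%, against 7.88%), and GTAAACA, a FOXO motif, in 0 of 28 (against 3.41%). A match is a string of letters and was not tested as a binding site.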

How the data were processed

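The authors sequenced RNA of vector and myr-AKT1 cells of A549 and HCC827, 1 library each, on an Illumina NovaSeq, mapped reads to hg38 with Bowtie2 and counted them per Ensembl gene with HTSeq. The methods describe poly(A) selection and the labels ribosomal RNA depletion with a strand-specific kit. The strand and overlap settings of the counting are not given in the sources used here. RPKM is the unit given in the methods. The deposited signal, however, holds whole read counts over 1 size factor for each library, estimated within the pair of a cell line. Reads were recovered from the step of 1 read (all values with reads whole within 0.001, except 1 in each vector library), and the count tests planned as alternatives were run on them. Because the deposited values are not counts, limma was the main test.

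Symbols, exons and snoRNA positions came from GENCODE release 44, where 297 of 60558 identifiers had no match. Genes with a pair mean under 50 were flagged and left out of counts and medians. Named genes were all members, AKT1, the 3 highest and 3 lowest of each companion list, of which the text gives a part, and snoRNAs with at least 20 reads. Some named genes are not reported here. Members and lists were chosen with earlier results of these data known. A C box was searched as TGATGA and a D box as the last CTGA. The fits were tested on simulated data. The alternatives were TMM, total reads, 1 set of size factors for the 4 libraries, adding 1 before the ratio, other filters and thresholds, and for the fit edgeR, DESeq2, a pseudocount of 0.1, no filter and no block. Fits ran in R 4.3.3 with DESeq2 1.42.0, edgeR 4.0.16 and limma 3.58.1, and the other steps in Python 3.11.15 with pysam 0.24.0, pandas 2.3.3, scipy 1.17.1 and numpy 2.4.6.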

Additional observations from a re-analysis of the deposited data

Results flagged for a closer look

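ZFAS1 was the only member tested in both lines whose fold change had opposite signs with counting intervals that exclude 0 in both. Its log2 fold change was -0.23 in A549 (3799.6 to 3249 normalized counts) and 0.16 in HCC827 (1934 to 2167). Under the other scalings and a pseudocount of 1 it ranged from -0.12 to -0.23 in A549 and from 0.15 to 0.24 in HCC827. Both are small, each rests on 1 library per condition, and whether the lines differ was not tested.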

How the results depend on the processing

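TMM, total reads, size factors over all 4 libraries and a pseudocount of 1 left 8 or 9 members past -1 in A549 and 5 or 6 in HCC827, with medians of -0.66 to -0.76 and -0.47 to -0.56. The member that fell short in A549 was DANCR, at -0.98 with TMM, -0.99 with total reads and -0.90 with size factors over all 4 libraries. Under these 3 scalings DANCR was thus not past -1 in both lines. Size factors over all 4 libraries moved the median of all genes in A549 by 0.10, and the members' median minus that of all genes was -0.69 in A549 and -0.49 in HCC827 under each scaling. The counting intervals leave out the choice of scaling. In A549 7 member fold changes left their interval, all with size factors over all 4 libraries. In HCC827 4 left it, all with total reads. At a threshold of 2, the members past it were 0 in A549 and 1 in HCC827 (SNHG25), and between the vector libraries 1 higher in A549 (SNHG14) and 0 lower. The share of all genes past a threshold of 2 was not computed, so these counts have no background beside them. Without the filter on low values, or with at least 10 summed reads, 1 member lay above 1 in HCC827 (SNHG9, 7 and 9 reads). In the fit over both lines, DESeq2 called 3 members lower, and limma called 6 when every gene with a read was kept (SNHG26, SNHG4, SNHG1, DANCR, SNHG17 and SNHG3, background 2.7%). edgeR with size factors, limma with a pseudocount of 0.1 and limma without the cell line block called 0 members, and 99, 0 and 0 of all genes. At an unadjusted p of 0.05 they had 8, 11 and 3 members lower, where 6.63%, 8.42% and 2.23% of all genes were lower. The adjusted p of SNHG26 ranged from 0.00199 to 0.143 over the fits with the block and was 0.999999 without it. No pairing by replicate number and no fit without 1 library could be made, because each group holds 1 library, and the block by cell line is the pairing used. With these depths the median counting interval reached 0.14 to either side of a member's log2 fold change in A549 and 0.21 in HCC827, and the spread between cultures is unknown. GENCODE canonical starts and lengths, and the scalings of the ribosomal protein and snoRNP core lists, were added after seeing the data. Those 2 medians stayed between -0.37 and -0.47 and between -1.07 and -1.17 in A549, and between -0.23 and -0.33 and between -0.68 and -0.77 in HCC827.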
